A study of Mus musculus with 16 samples.

Results

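Transcripts of 10 polypeptide GalNAc transferases, the enzymes that begin O-GalNAc (mucin-type) glycosylation, were measured in the cortex and cerebellum of mice with and without a variant in a manganese transporter gene. The 10 genes are *Galnt1*, *Galnt3*, *Galnt4*, *Galnt6*, *Galnt7*, *Galnt9*, *Galnt10*, *Galnt11*, *Galnt13* and *Galnt14*, taken by name from the 37583 genes of the deposited tables. A further 9 genes of the same family were found under other or older symbols and serve as comparison. All mice were C57BL/6J, and the study took both regions from 4 wild-type animals and from 4 carrying *Slc39a8* A391T, which the labels also write as A393T. Each region of each mouse gave 1 library, 16 in all. The wild-type cortex libraries are CTX447, CTX448, CTX479 and CTX480, those of A391T cortex CTX445, CTX446, CTX461 and CTX462, and the cerebellum libraries carry the same numbers after CBLM. Values are given in this order throughout. The study used wild-type males of 12 weeks for RNA, while the age, sex and zygosity of the mice with the variant are not given in the sources used here.

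Each polypeptide GalNAc transferase sits in the Golgi and moves N-acetylgalactosamine from UDP-GalNAc onto serine or threonine of a passing protein, with a manganese ion in its catalytic site. A core 1 galactosyltransferase, branching enzymes and sialyltransferases then extend this first sugar. Some family members act on bare peptide, whereas others prefer a peptide that already carries GalNAc, so a cell's set of transferases shapes which sites are filled. The region comparison asked which of these enzymes differ between cortex and cerebellum, and the genotype comparison asked whether their transcripts differ in mice with the transporter variant.

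Libraries held from 20813432 to 30497206 counts on genes, and lists of cortical and cerebellar marker genes matched the labelled regions. The 4 cortical markers summed to 2233 to 2801 TPM in the 8 cortex libraries and 742 to 994 TPM in the 8 cerebellum libraries, against 113 to 137 TPM and 2428 to 2739 TPM for the 5 cerebellar markers. TPM here means counts per base of gene length, brought to a common sum in each library. The choroid plexus list was uneven in cerebellum, at 44.1 TPM in CBLM479 (wild type) and 42.9 TPM in CBLM462 (A391T) but at 2385 to 8081 TPM in the other 6 libraries. In cortex, 4 striatal genes summed to 195 TPM in CTX461 (A391T) and to 417 to 657 TPM in the other 7 libraries. CBLM445 (A391T) stood apart from its group over all genes: counts compared pairwise gave a chi-square over its degrees of freedom between 62.3 and 74.5 for this library and between 7.23 and 8.13 for pairs of the other 3. Without it 7 of the 10 genes were called between A391T regions, as with it, while calls over all genes went from 10056 to 11797. In wild-type cortex this ratio was 15.1 to 34.4 for pairs with CTX480 and 5.10 to 12.0 for the other pairs. Without CTX480 calls over all genes between wild-type regions went from 10875 to 11282. The names of 8 libraries, those of 4 mice, differ between the count files and the RPKM table, where CTX447, CTX448, CBLM447 and CBLM448 change places with CTX461, CTX462, CBLM461 and CBLM462. The count files' names are used below for all levels and shares, and calls that depend on this choice are given both ways. *Slc39a8* itself had 75 to 171 counts per library and did not pass the test between genotypes, with a log2 fold change of 0.17 ± 0.18 in cortex and of -0.032 ± 0.13 in cerebellum (± standard error for every log2 fold change below). Since the variant changes an amino acid, this level is no check of the genotype labels.

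*Galnt9*, a transferase known for its expression in brain, had the highest level per gene length (TPM) of the 10 genes in every library. Its level was 166 ± 26.7 TPM in wild-type cortex (SD, n = 4) and 152 ± 3.92 TPM in wild-type cerebellum (SD, n = 4). It made up 53.8% ± 3.23 of the summed level of the 10 genes in cortex and 42.4% ± 0.687 in cerebellum. *Galnt11*, whose enzyme glycosylates the linkers between repeats of LDL receptor family proteins and also Notch1, came next at 51.6 ± 2.24 TPM and 56.5 ± 3.13 TPM. *Galnt9* and *Galnt11* together held 70.7% of the summed level in wild-type cortex and 58.1% in wild-type cerebellum. Without division by gene length the share of *Galnt9* was 41.5% in cortex and 27.9% in cerebellum, where *Galnt13* held 26.1%. In the RPKM table *Galnt9* has a length of 2985 bases, below that of the other members except *Galnt11* (2979 bases), and *Galnt13* has 8139 bases. As CPM, the share of a library's counts with no division by length, *Galnt13* was above *Galnt9* in CBLM479 (125 against 123) and CBLM480 (119 against 118). The place of *Galnt11* also rests on length. Its share without length was 12.9% in wild-type cortex, where *Galnt1* held 13.3%. In wild-type cerebellum it was 10.3%, below *Galnt13*, *Galnt1* (13.3%) and *Galnt7* (11.3%).

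In wild-type cortex, *Galnt1* followed at 28.6 ± 0.845 TPM, then *Galnt14* at 16.0 ± 0.622, *Galnt13* at 14.6 ± 1.74, *Galnt6* at 10.3 ± 0.620, *Galnt10* at 7.96 ± 0.929, *Galnt7* at 7.65 ± 1.08, *Galnt4* at 3.54 ± 0.479 and *Galnt3* at 1.09 ± 0.298 TPM (SD, n = 4 each). The libraries' ranges overlapped between *Galnt14* and *Galnt13* and between *Galnt10* and *Galnt7*, and no other neighbours in this order overlapped. In wild-type cerebellum the order was *Galnt9*, *Galnt11*, *Galnt13*, *Galnt1*, *Galnt7*, *Galnt10*, *Galnt6*, *Galnt4*, *Galnt14* and *Galnt3*, with overlap only between *Galnt11* and *Galnt13*. *Galnt13* thus moved from place 5 to place 3, *Galnt7* from 8 to 5 and *Galnt14* from 4 to 9. The A391T groups had the same order as wild type in both regions. There the neighbours that overlapped were *Galnt10* and *Galnt7* in cortex, and *Galnt13* and *Galnt1* as well as *Galnt10* and *Galnt6* in cerebellum.

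**Figure D1:**
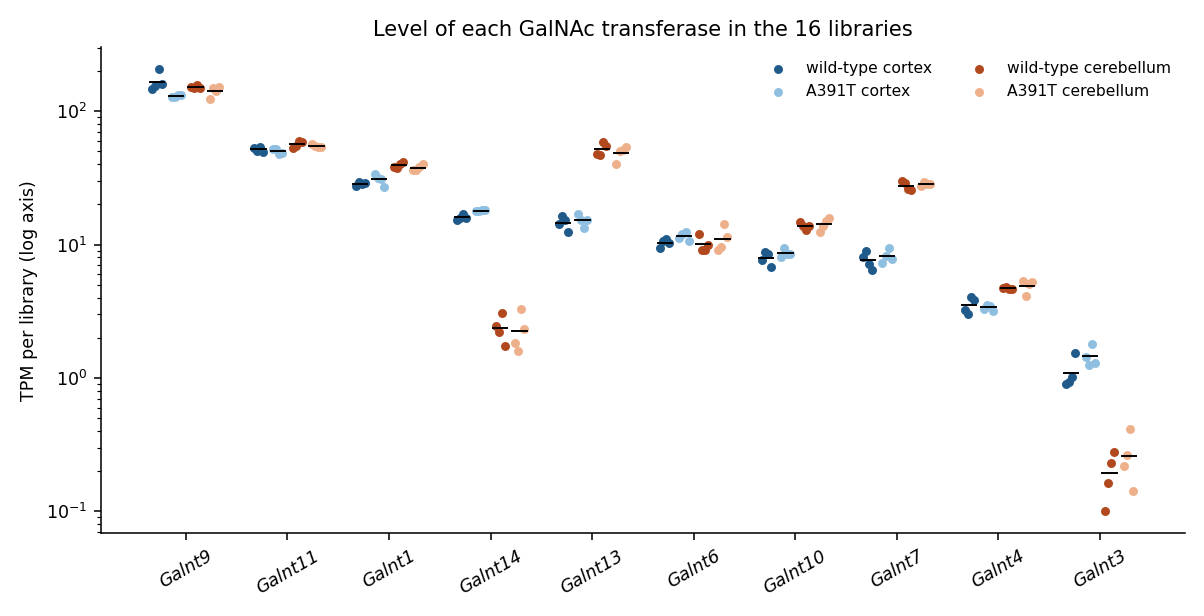
Level of each of the 10 genes (TPM, log axis) in the 16 libraries, with 1 point per library and a black line at the mean of each group of 4. *Galnt9* is highest in every group, while *Galnt13* and *Galnt7* sit higher and *Galnt14* and *Galnt3* lower in both cerebellum groups than in either cortex group.

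Between wild-type regions, 7 of the 10 genes were called at an adjusted p under 0.05 in the quasi-likelihood test of edgeR, with p-values adjusted by Benjamini-Hochberg across the 16040 genes in the fit. Of those genes 67.8% were called, so this share is near the background. Higher in cerebellum were 4 members (*Galnt13*, *Galnt7*, *Galnt10* and *Galnt1*), against 34.7% of all genes, and lower were 3 (*Galnt14*, *Galnt3* and *Galnt9*), against 33.1%. With the study's further criterion of a 2-fold change, 4 of the 10 were called, against 24.7% of all genes. These were *Galnt13* and *Galnt7* as higher (10.5% of all genes) and *Galnt14* and *Galnt3* as lower (14.2% of all genes). *Galnt3* passed the filter on low counts only through its cortex libraries, so its calls between regions had to point this way and support nothing, which leaves 3 members past 2-fold in each genotype. The median size of the log2 fold change was 0.47 over the 10 genes and 0.46 over all genes. Ranges of TPM did not overlap between the regions for 7 of the 10 genes, against 65.9% of all genes. In tissue RNA, a difference in the number of cells of a type and a difference in RNA per cell cannot be told apart. Some marker sums of other cells also moved with region, from 399.7 to 479.4 TPM in cortex against 121 to 165 TPM in cerebellum for 5 microglial genes. For 5 astrocyte genes they went from 823 to 1004 TPM against 1353 to 1701 TPM. Of these, *Aqp4*, *Slc1a3* and *Gfap* were called higher in wild-type cerebellum, while *Aldh1l1* (-0.06 ± 0.06) and *Gja1* (0.08 ± 0.07) were not called. The choroid plexus list had 8.64 to 49.7 TPM in cortex against 42.9 to 8081 TPM in cerebellum. Sums overlapped between regions for 5 endothelial genes (276 to 451 against 270 to 364 TPM) and 7 oligodendrocyte genes (3829 to 4516 against 3688 to 5699 TPM). The part of these lists in the results was not tested.

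*Galnt13* and *Galnt1* encode close relatives that act on bare peptide, *Galnt13* being known from neurons and *Galnt1* from most tissues. *Galnt13* (ENSMUSG00000060988) spans 682 kb of chromosome 2 of NCBIM37 (mm9), from 54288728 to 54970720 on the plus strand. *Galnt7* (ENSMUSG00000031608) lies on the minus strand of chromosome 8 from 60002625 to 60131829, and *Galnt14* (ENSMUSG00000024064) on the minus strand of chromosome 17 from 73842568 to 74059793. No exon of these genes overlaps an exon of another gene in the annotation. The stretch before the annotated start of each is shown because these genes had the largest region differences with over 50 counts in every library. The sequences are RefSeq promoters (GRCm38.p6) placed in NCBIM37 by exact match, written 5′ to 3′ on the gene's strand with CpG dinucleotides in capitals. They cover chr2:54288548-54288727 (plus strand), chr8:60131853-60132102 (minus strand) and chr17:74059794-74060041 (minus strand).
Galnt13: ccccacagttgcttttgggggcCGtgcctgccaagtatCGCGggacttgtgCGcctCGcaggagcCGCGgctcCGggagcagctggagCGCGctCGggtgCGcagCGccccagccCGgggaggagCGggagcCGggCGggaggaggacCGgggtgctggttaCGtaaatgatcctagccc
Galnt7: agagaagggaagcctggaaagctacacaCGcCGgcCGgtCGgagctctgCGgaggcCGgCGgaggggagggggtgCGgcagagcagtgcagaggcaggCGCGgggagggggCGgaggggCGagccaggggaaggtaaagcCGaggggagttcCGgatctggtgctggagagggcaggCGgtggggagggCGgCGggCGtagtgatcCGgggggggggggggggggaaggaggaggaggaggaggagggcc
Galnt14: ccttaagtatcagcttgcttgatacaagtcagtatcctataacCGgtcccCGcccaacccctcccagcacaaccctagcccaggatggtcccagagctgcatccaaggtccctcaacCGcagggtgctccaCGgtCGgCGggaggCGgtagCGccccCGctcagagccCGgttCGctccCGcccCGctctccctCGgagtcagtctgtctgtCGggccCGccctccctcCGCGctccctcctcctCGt
The 250 bases before the RefSeq start hold 23 CpG for *Galnt13* and 19 each for *Galnt7* and *Galnt14*, against a median of 6 (quartiles 2 and 16) over 32841 mouse promoter windows of that length. On either strand, the GC box GGGCGG occurs 2 times for *Galnt13*, 2 times for *Galnt7* and 3 times for *Galnt14*, and in 32.7% of all windows. The letters TATAAA, present in 12.4% of all windows, and CCAAT, present in 33.9%, occur in none of the 3. Upstream starts of members with smaller region differences had 32 CpG and 3 GC boxes for *Galnt9*, 22 and 3 for *Galnt6*, 20 and 0 for *Galnt10* and 13 and 2 for *Galnt11*.

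*Galnt13* had 14.2, 16.4, 15.3 and 12.3 TPM in the 4 wild-type cortex libraries, and 47.8, 47.3, 59.1 and 55.2 TPM in cerebella of the same mice. Every cerebellum library was above every cortex library, with ratios within a mouse from 2.88 to 4.47. The log2 fold change was 1.69 ± 0.09 (95% interval 1.49 to 1.89, adjusted p = 2.6e-08 by edgeR). In the A391T mice the cortex had 17.1, 15.2, 13.3 and 15.3 TPM and the cerebellum 40.0, 50.0, 51.5 and 53.5 TPM. CTX445 was the highest of these cortex libraries and CBLM445 the lowest of the cerebellum libraries, a ratio of 2.34 within that mouse. The log2 fold change in A391T mice was 1.57 ± 0.09 (adjusted p = 2.7e-07 by edgeR), and 1.63 without CBLM445.

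*Galnt1* (ENSMUSG00000000420, chromosome 18, 24363845 to 24445319, plus strand) differed far less. Wild-type cortex had 27.4, 29.4, 28.5 and 29.0 TPM and wild-type cerebellum 38.2, 37.5, 40.4 and 41.6 TPM. These ranges did not overlap, and the log2 fold change was 0.31 ± 0.05 (adjusted p = 3.2e-04 by edgeR). In A391T mice the cortex had 33.5, 31.6, 30.9 and 27.0 TPM and the cerebellum 36.0, 36.1, 38.3 and 40.1 TPM, also without overlap. There the log2 fold change was 0.19 ± 0.08 with an adjusted p of 0.0498 by edgeR, and the call was lost under 6 alternative settings, among them DESeq2 (adjusted p = 0.05002) and mouse as a block (adjusted p = 0.0883). It was also lost when CTX446, CTX461, CTX462, CBLM461 or CBLM462 was left out, with log2 fold changes from 0.13 to 0.20.

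*Galnt7*, *Galnt10* and *Galnt4* encode transferases that prefer or readily use peptides already carrying GalNAc. *Galnt7* was at 8.03, 8.94, 7.19 and 6.44 TPM in wild-type cortex and at 30.1, 28.7, 26.3 and 25.7 TPM in wild-type cerebellum. The lowest cerebellum library lay above every cortex library, and the ratio within a mouse ran from 3.21 to 3.99. The log2 fold change was 1.70 ± 0.10 (95% interval 1.47 to 1.93, adjusted p = 7.0e-08 by edgeR). In A391T mice *Galnt7* had 7.22, 8.24, 9.39 and 7.86 TPM (cortex) against 27.5, 29.3, 28.4 and 28.3 TPM (cerebellum), a log2 fold change of 1.69 ± 0.08. Its neighbour 124 kb upstream, the family gene *Galntl6*, went the other way, from 12.4 ± 3.14 TPM in wild-type cortex to 2.10 ± 0.376 TPM in wild-type cerebellum (log2 fold change -2.71 ± 0.20).

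*Galnt10* (ENSMUSG00000020520, chromosome 11, 57458944 to 57601016, plus strand) was at 7.72, 8.84, 8.53 and 6.77 TPM in wild-type cortex and at 14.7, 13.7, 12.8 and 13.7 TPM in wild-type cerebellum. The groups did not overlap, and the log2 fold change of 0.63 ± 0.09 (adjusted p = 9.0e-05 by edgeR) stayed below 2-fold. A391T mice gave 8.11, 9.49, 8.56 and 8.46 TPM in cortex, 12.4, 13.8, 15.1 and 15.9 TPM in cerebellum, or 0.62 ± 0.08 as log2 fold change. *Galnt4* (ENSMUSG00000090035, chromosome 10, 98570793 to 98575881, plus strand) has a single exon, lies within the span of *Poc1b* and shares no exon base with it. It was at 3.24, 3.04, 4.05 and 3.83 TPM in wild-type cortex and at 4.75, 4.83, 4.60 and 4.63 TPM in wild-type cerebellum. Although these values did not overlap, the log2 fold change of 0.26 (95% interval 0.01 to 0.52) missed the threshold with an adjusted p of 0.0647 by edgeR. Leaving out CTX479 gave 0.32 (adjusted p = 0.0405) and leaving out CTX480 gave 0.31 (adjusted p = 0.0412). In A391T mice *Galnt4* was called, with cortex at 3.31, 3.50, 3.49 and 3.20 TPM and cerebellum at 5.29, 4.15, 5.03 and 5.22 TPM (log2 fold change 0.45 ± 0.12, adjusted p = 0.00784 by edgeR). With only the mice named alike in both sources, 2 per genotype, the log2 fold change was 0.42 and its adjusted p 0.195.

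*Galnt14* and *Galnt3* were the family members of this set with the largest drop from cortex to cerebellum. *Galnt14*, whose product belongs to the branch of the family around GALNT2, was at 15.3, 15.8, 16.8 and 15.9 TPM in wild-type cortex and at 2.47, 2.22, 3.06 and 1.72 TPM in wild-type cerebellum. Cortex libraries held 510 to 677 counts on it and cerebellum libraries 58 to 108, so the low values rest on fewer reads. The log2 fold change was -2.90 ± 0.14 (95% interval -3.20 to -2.60, adjusted p = 7.3e-09 by edgeR), a 7.48-fold difference. In A391T mice the cortex had 17.8, 17.8, 18.0 and 18.2 TPM and the cerebellum 1.82, 1.60, 3.26 and 2.34 TPM, a log2 fold change of -3.10 ± 0.18.

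*Galnt3* (ENSMUSG00000026994, chromosome 2, 65920823 to 65963051, minus strand), whose product protects the phosphate hormone FGF23 from cleavage, had the lowest level of the 10 genes in every group. Wild-type cortex libraries had 28, 34, 28 and 42 counts, or 0.895, 0.928, 1.01 and 1.53 TPM, and wild-type cerebellum libraries 3, 5, 7 and 8 counts, or 0.100, 0.162, 0.231 and 0.277 TPM. The lowest count is no higher than 3, the floor set by a count of 0. The log2 fold change was -2.62 with a wide 95% interval of -3.31 to -1.93 (adjusted p = 1.9e-05 by edgeR). Since the gene was in the fit only through its higher group, this value is a description. A391T cortex had 43, 39, 54 and 48 counts and A391T cerebellum 8, 8, 12 and 4 counts, a log2 fold change of -2.57 ± 0.27. This floor covers counting error only, whereas the intervals of the fit include the spread between mice.

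*Galnt6*, the close relative of *Galnt3* (ENSMUSG00000037280, chromosome 15, 100522244 to 100559807, minus strand), was not called in either region comparison. It was at 9.49, 10.5, 11.0 and 10.3 TPM in wild-type cortex and 12.0, 9.11, 9.02 and 9.91 TPM in wild-type cerebellum, with a log2 fold change of -0.20 (95% interval -0.42 to 0.03, adjusted p = 0.114 by edgeR). In A391T mice cortex had 11.2, 12.1, 12.5 and 10.7 TPM and cerebellum 9.14, 9.54, 14.1 and 11.4 TPM, with a log2 fold change of -0.18 (95% interval -0.45 to 0.10). CBLM447 (wild type) and CBLM461 (A391T) stood above the others of their groups. These libraries also had the highest summed level of 7 oligodendrocyte genes in their groups, 5249 TPM for CBLM447 against 3688 to 4280 TPM in the other 3 and 5699 TPM for CBLM461 against 4172 to 5179 TPM. Leaving out CBLM447 gave -0.29 (adjusted p = 0.0130) and leaving out CBLM461 gave -0.30 (adjusted p = 0.0253), both by edgeR. The part of these markers in the values of *Galnt6* was not tested. Of its exon bases 7.67% overlap a gene on the other strand, and since counting ignored strand, reads there cannot be assigned to one gene.

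**Figure D2:**
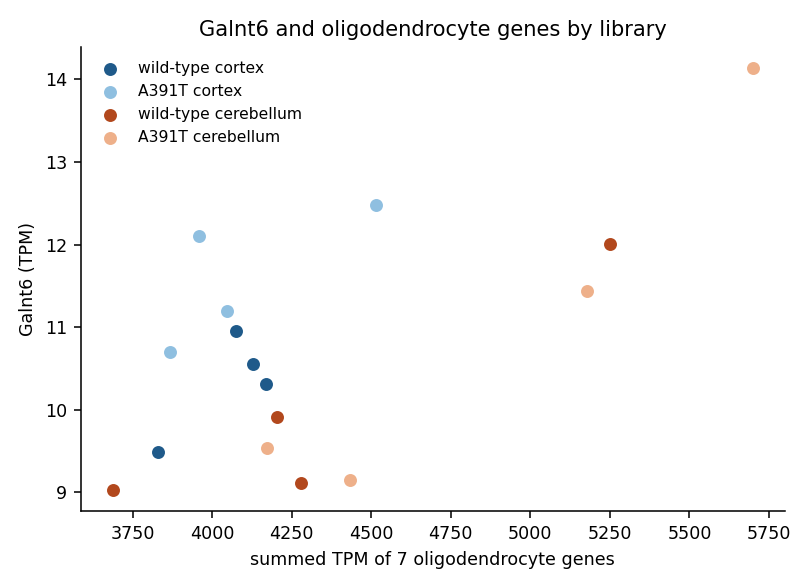
*Galnt6* (TPM) against the summed TPM of 7 oligodendrocyte genes, with 1 point per library, coloured by group. CBLM461 (14.1 TPM), CBLM447 (12.0 TPM) and CBLM462 (11.4 TPM) have the 3 highest oligodendrocyte sums, while *Galnt6* in the other libraries ranges from 9.02 to 12.5 TPM.

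*Galnt9* (ENSMUSG00000033316, chromosome 5, 110973364 to 111050401, plus strand) was called lower in wild-type cerebellum, although its TPM ranges overlapped. Wild-type cortex had 146, 155, 205 and 159 TPM and wild-type cerebellum 152, 149, 158 and 149 TPM, so CTX479 stood above all other libraries. The log2 fold change was -0.28 ± 0.09 (adjusted p = 0.0174 by edgeR), and -0.17 without that library. The call was lost under the names of the RPKM table (-0.22, adjusted p = 0.134), with only the mice named alike (-0.41, adjusted p = 0.0521) and without CBLM480 (-0.25, adjusted p = 0.0554). In A391T mice the cortex had 128, 128, 133 and 132 TPM and the cerebellum 124, 150, 142 and 151 TPM, with a log2 fold change of 0.02 (95% interval -0.11 to 0.15). *Galnt11* (ENSMUSG00000038072, chromosome 5, 24728700 to 24771736, plus strand), with 5.01% of its exon bases on a gene of the other strand, had 52.6, 50.2, 54.3 and 49.4 TPM in wild-type cortex and 53.0, 55.0, 59.9 and 58.4 TPM in cerebellum. In A391T mice *Galnt11* had 52.2, 51.7, 47.7 and 48.6 TPM in cortex and 56.5, 55.3, 53.8 and 53.9 TPM in cerebellum, without overlap. Its log2 fold change was -0.02 (95% interval -0.15 to 0.11) in wild-type and 0.03 (95% interval -0.13 to 0.19) in A391T mice, and its sign changed with the library names. Ratios of TPM between the regions exceed the fitted fold changes by a median of 0.15 on the log2 scale in wild-type and 0.10 in A391T mice over genes with more than 1 TPM. For ratios of CPM the excess was 0.12 and 0.13.

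**Figure D3:**
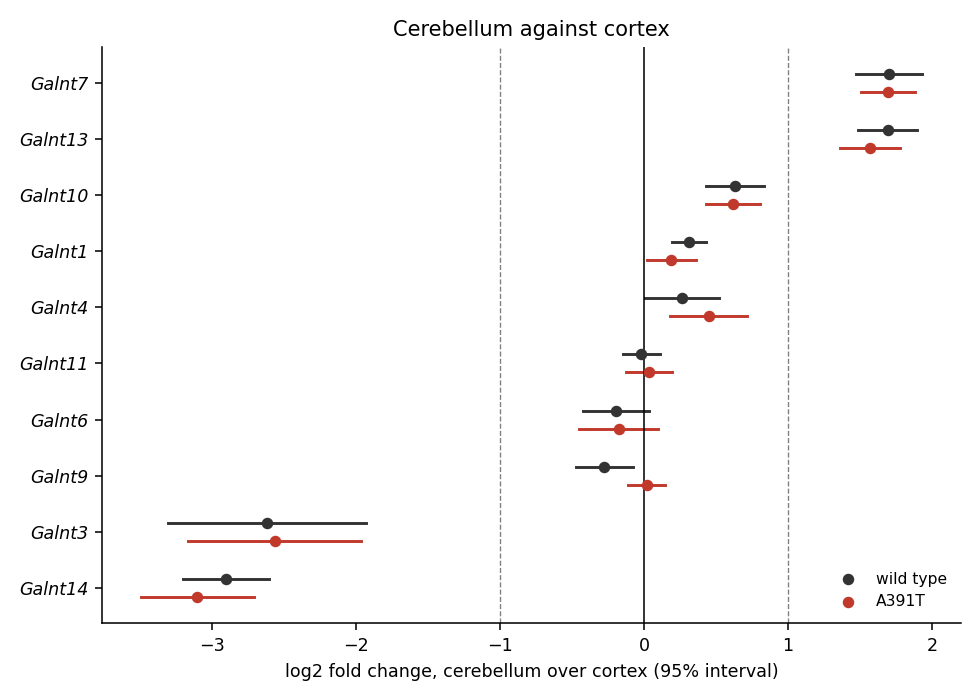
Log2 fold change of cerebellum over cortex for the 10 genes, with points for the estimate and bars for its 95% interval, in wild-type (black) and A391T mice (red). Dashed lines mark a 2-fold change, which *Galnt7* and *Galnt13* exceed upward and *Galnt3* and *Galnt14* downward in both genotypes.

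In A391T mice 7 of the 10 genes were called between regions, against 62.8% of the 16005 genes tested. Higher in cerebellum were *Galnt1*, *Galnt4*, *Galnt7*, *Galnt10* and *Galnt13*, 5 genes against 31.6% of all, and lower were *Galnt3* and *Galnt14*, 2 genes against 31.3% of all. With a 2-fold change 4 were called, against 24.7% of all genes. These were again *Galnt7* and *Galnt13* as higher (9.8% of all genes) and *Galnt3* and *Galnt14* as lower (14.9% of all genes), *Galnt3* again in the fit only through cortex. Ranges did not overlap for 8 of the 10, against 61.8% of all genes. *Galnt11* was among these without being called. Its fitted log2 fold change of 0.03 is smaller than the median excess of TPM ratios over fitted changes in A391T mice (0.10). Whether the region effect differed between genotypes was tested as an interaction in the 16 libraries together. None of the 10 genes and none of the 16589 tested (0%) were called by edgeR, while 805 genes (4.85%) had an unadjusted p under 0.05 and DESeq2 called 1. This difference ran from -0.19 for *Galnt14* to 0.31 for *Galnt9* on the log2 scale. For *Galnt9* it had a standard error of 0.11, an unadjusted p of 0.0123 and an adjusted p of 0.769 by edgeR. It was 0.20 without CTX479, 0.18 under the names of the RPKM table and 0.47 with only the mice named alike.

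The summed level of the 10 genes was 308 ± 30.3 TPM in wild-type cortex, 359 ± 10.6 TPM in wild-type cerebellum, 277 ± 3.01 TPM in A391T cortex and 344 ± 21.5 TPM in A391T cerebellum (SD, n = 4 each). These sums lack the scaling of the fits. TPM ratios of cerebellum over cortex exceeded fitted fold changes by a median log2 of 0.15 in wild-type and 0.10 in A391T mice. A difference of the sums between regions was not tested. *Galnt13* went in share from 4.75% ± 0.596 in wild-type cortex to 14.5% ± 1.20 in wild-type cerebellum, and *Galnt7* from 2.51% ± 0.466 to 7.72% ± 0.744. *Galnt14* made up 5.22% ± 0.297 in cortex and 0.658% ± 0.142 in cerebellum. *Galnt1* held 9.35% ± 0.843 and 11.0% ± 0.375. In A391T mice *Galnt9* made up 46.9% ± 1.42 of the sum in cortex and 41.2% ± 1.43 in cerebellum. Without division by gene length, shares in wild-type cortex and cerebellum were 9.97% and 26.1% for *Galnt13* and 4.30% and 11.3% for *Galnt7*.

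**Figure D4:**
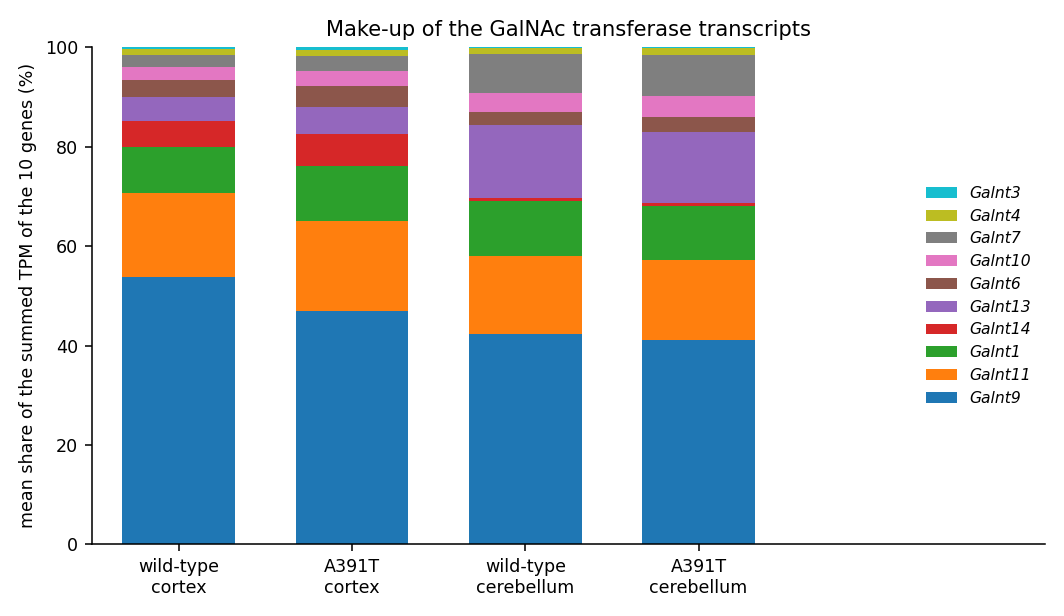
Mean share of each of the 10 genes in their summed TPM (%), with 1 stacked bar per group of 4 libraries. *Galnt9* is the largest part in each bar, at 53.8% in wild-type cortex and 41.2% in A391T cerebellum, and *Galnt13* widens from 4.75% to 14.5% between the wild-type regions.

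Between genotypes none of the 10 genes was called in either region. In cortex 2 of 15815 genes (0.0126%) were called by edgeR, and 14 by DESeq2. The 10 genes had log2 fold changes from -0.37 to 0.40, and *Galnt9* and *Galnt14* had an unadjusted p under 0.05, as did 4.73% of all genes. *Galnt9* was lower in all 4 A391T cortex libraries (128 to 133 TPM) than in any wild-type cortex library (146 to 205 TPM), with a log2 fold change of -0.37 ± 0.09 (unadjusted p = 0.0015, adjusted p = 0.784 by edgeR). *Galnt14* was higher in all 4 A391T cortex libraries (17.8 to 18.2 TPM against 15.3 to 16.8 TPM), with a log2 fold change of 0.15 ± 0.06 (adjusted p = 1.00). These were 2 of the 10 genes, and ranges did not overlap for 3.24% of all genes in this comparison. For each of the pair the two-sided exact permutation test gave 0.0286, the smallest p that 4 against 4 libraries allow, or 0.0672 after adjustment over the 40 such tests of the 10 genes. Groups without overlap always give this smallest p, so it only restates the lack of overlap. Under the names of the RPKM table the log2 fold change of *Galnt9* was -0.19 and that of *Galnt14* -0.06. The groups then overlapped for both genes, at 128 to 155 TPM in A391T against 132 to 205 TPM in wild type for *Galnt9* and at 15.3 to 17.8 TPM against 15.9 to 18.2 TPM for *Galnt14*. Without CTX479 the value for *Galnt9* was -0.27, without CTX461 with its low striatal sum it was -0.38, and with only the mice named alike it was -0.54 (adjusted p = 0.833).

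In cerebellum 9 genes passed the filter on low counts, *Galnt3* with 3 to 12 counts per library being left out. None was called by edgeR, and of all 15668 genes none was called either (0%), with 8.55% at an unadjusted p under 0.05 and 37 genes called by DESeq2. No member had an unadjusted p under 0.05, no member's TPM ranges were apart (7.83% of all genes), and the log2 fold changes ran from -0.05 for *Galnt13* to 0.19 for *Galnt6*. The 95% intervals were narrowest for *Galnt9* (-0.18 to 0.08) and widest for *Galnt14* (-0.56 to 0.51), so that a 2-fold difference lies outside the interval for each of the 9 genes. The median log2 fold change was 0.015 over the 9 genes and 0.0060 over all genes.

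**Figure D5:**
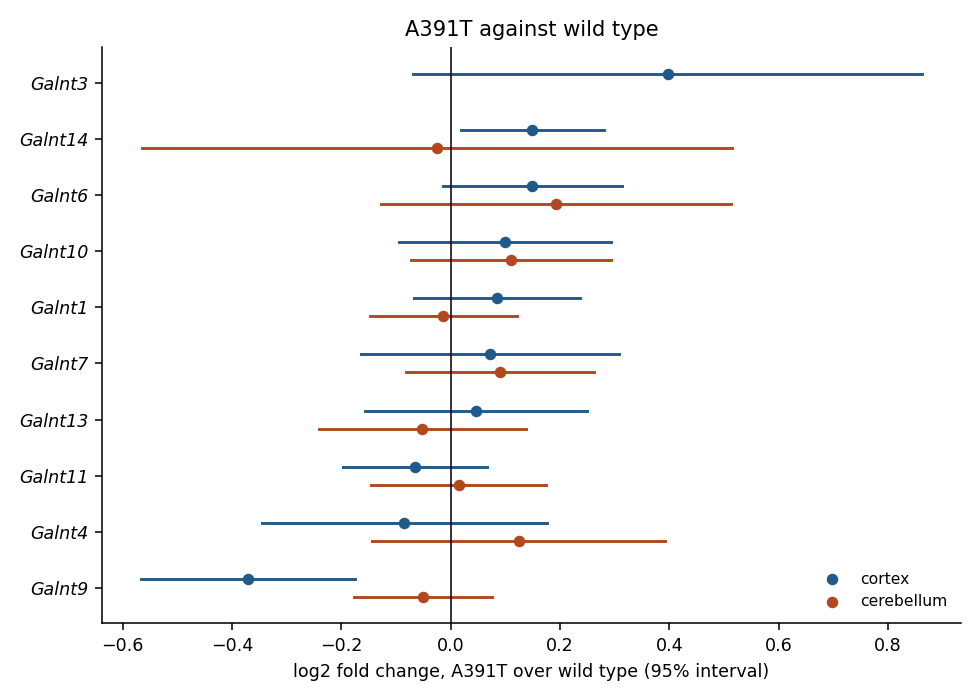
Log2 fold change of A391T over wild type for the 10 genes, with points for the estimate and bars for its 95% interval, in cortex (blue) and cerebellum (orange). *Galnt9* in cortex lies at -0.37, and *Galnt3* has a value in cortex only.

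Of the 9 other family genes found, 7 were tested between wild-type regions and 6 called (2 higher, 4 lower in cerebellum), against 67.8% of all genes. *Galntl2* (now *Galnt15*) rose from 4.19 ± 0.790 TPM in cortex to 37.2 ± 9.52 TPM in cerebellum, a log2 fold change of 2.99 ± 0.18. *Galntl1* (now *Galnt16*), with 152 ± 10.5 TPM in wild-type cortex, was the family gene nearest to *Galnt9* in level and fell to 75.1 ± 3.63 TPM in cerebellum (log2 fold change -1.17 ± 0.06). In A391T cortex *Galntl1* at 153 ± 2.28 TPM was above *Galnt9*. *Galnt12* had a log2 fold change of -1.44 ± 0.20 from 2.70 ± 0.383 TPM in cortex. *Galnt2* had only 2 to 23 counts per library, but 90% of its exon bases overlap the gene model *Gm20388* on the same strand, which had 0 counts in all libraries. Reads on bases of both models count as ambiguous, so the counts of *Galnt2* do not measure its expression.

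Of 13 genes that extend O-GalNAc, 10 were tested between wild-type regions and 7 called, near the 67.8% of all genes, with 4 higher and 3 lower in cerebellum. *St6galnac4*, a sialyltransferase that adds sialic acid to the GalNAc of sialylated core 1, went from 32.3 ± 1.57 in cortex to 103 ± 4.58 TPM in cerebellum (log2 fold change 1.52 ± 0.05). *Gcnt1*, the core 2 branching enzyme, was higher in cerebellum (1.32 ± 0.13), while its relative *Gcnt4* (-3.98 ± 0.14) and *St3gal1*, which sialylates core 1 galactose (-1.72 ± 0.13), were lower. Of 6 genes that supply the donor sugar 5 were called (2 higher, 3 lower) against 67.8% of all genes, and none had a 2-fold change, against 24.7% of all genes. Of 11 genes for proteins that carry O-GalNAc 10 were tested and 5 called (4 higher, 1 lower), a share below the 67.8% of all genes. *Vldlr*, a receptor for reelin, was the only one of these past 2-fold, from 31.6 ± 3.01 in cortex to 73.4 ± 2.48 TPM in cerebellum (log2 fold change 1.07 ± 0.07). In A391T mice 8 of 10 extension genes, 6 of 7 other family genes (*Galnt2* with its few counts among them), 4 of 6 donor genes and 2 of 10 carriers were called between regions, against 62.8% of all genes. None of the genes of these 4 lists was called between genotypes in either region.

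The genes most like each transferase over the 16 libraries were found by Pearson's correlation of log2(TPM + 0.5) across 16589 genes. These points share their 2 regions, and for genes with a large region difference the correlation mostly restates that difference. Cerebellum levels of *Galnt3* (0.100 to 0.415 TPM) lie below the pseudocount of 0.5, which sets the low end of its correlations. For *Galnt13* the closest were *Reln* (0.997), which encodes reelin of cerebellar granule cells and of scattered cortical interneurons, *Grm4* (0.996) and *Kcnd2* (0.996). For *Galnt14* they were *Cckbr* (0.998), *Basp1* (0.997) and *Col25a1* (0.997). *Galnt7* was closest to *Rif1* (0.995), *Fzd1* (0.995) and *Pitpnm1* (0.995), *Galnt10* to *Tril* (0.988), *Zfp882* (0.985) and *Fgd4* (0.985), *Galnt1* to *Mier3* (0.970), *Fam135a* (0.966) and *Zfp266* (0.965), *Galnt3* to *Tk2* (0.981), *Rbm11* (0.980) and *Mov10* (0.979), and *Galnt4* to *1700084C01Rik* (0.954). The genes with little region difference had lower values, with *Sgsm1* (0.866), *Gm8055* (0.832) and *Oxsm* (0.815) for *Galnt9*, *Prr18* (0.875), *1700010I14Rik* (0.838) and *Il33* (0.815) for *Galnt6*, and *Dhdds* (0.947), *E2f7* (0.925) and *2310058D17Rik* (0.908) for *Galnt11*. Among the 10 genes themselves, *Galnt7* and *Galnt13* had a correlation of 0.976 and *Galnt7* and *Galnt14* one of -0.977.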

How the data were processed

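Libraries were made by the authors from total RNA of snap-frozen tissue by polyA selection and a directional kit, sequenced as short reads, mapped with STAR to mm9 and counted per Ensembl gene with HTSeq. The authors deposited whole-number counts per gene for each of 16 libraries, counted without strand, and 1 table of RPKM values with gene lengths. RPKM values served only to compare library names: 8 of 16 columns, of 4 mice, carry another name than the count file with the same values. Reads on no single gene were left out of totals, which were 10.2% to 13.2% on no gene, 2.20% to 2.75% ambiguous and 8.41% to 12.1% not uniquely aligned.

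Counts were tested with edgeR 4.0.16 (R 4.3.3, limma 3.58.1) using filterByExpr, TMM and the quasi-likelihood F test. P-values were adjusted across the whole fit by Benjamini-Hochberg, and genes called at an adjusted p under 0.05. Standard errors are the log2 fold change over the root of F. The script was tested on simulated data. TPM was computed from counts and the RPKM table's lengths (pseudocount 0.5 on log scales). For none of the 10 genes does that length equal the exon length of GENCODE vM1. Python 3.11.15, numpy 2.4.6, pandas 2.3.3 and scipy 1.17.1 were used.

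The 10 genes and the gene lists were chosen with earlier results of these data known. Named were every member, *Slc39a8*, listed genes past both criteria between wild-type regions, and the 3 genes most correlated with each member, of which some for *Galnt4* are not reported here. Other genes named beside a result were chosen after their values were seen. Alternatives were RLE size factors, DESeq2 1.42.0, no low-count filter, a joint model of the 16 libraries, a 2-fold criterion, the RPKM table's names, only mice named alike, mouse as a block, and each library left out. The RPKM table's names together with the block were added after the data were seen. Since both regions came from the same mice per the study, the mouse number pairs them. Across genes, a mouse's 2 regions deviated from the group means with correlations between -0.18 and 0.23 in wild-type and between -0.16 and 0.10 in A391T mice. Regions of different mice gave -0.27 to 0.24 in wild-type and -0.16 to 0.16 in A391T mice, so these values do not show the pairing. Libraries of a group came from separate mice. Protein sequences were not used here.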

Additional observations from a re-analysis of the deposited data

How the results depend on the processing

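Members called between wild-type regions numbered from 6 to 8 and between A391T regions from 5 to 7 under every alternative but the 2-fold criterion, which gave 4 in each. With only the mice named alike they were 6 and 5, beside 7724 of 16260 and 6617 of 16234 genes in all, and with no filter on low counts 7 and 6, beside 11695 of 25831 and 10771 of 25874. No member was called between genotypes or for the interaction under any of them. Of 281 log2 fold changes under settings that keep all mice or a named subset, 258 kept direction and side of the threshold, 10 lost the call and 13 changed sign; with 1 library left out these numbers were 305, 6 and 13 of 328, and 4 gained a call. Under the names of the RPKM table, *Galnt11* had 0.025 in wild type, and *Galnt9* had -0.057 and *Galnt11* -0.012 in A391T mice. Between genotypes these names gave -0.057 for *Galnt14*, -0.34 for *Galnt3*, -0.046 for *Galnt6* and 0.040 for *Galnt11* in cortex, and -0.017 for *Galnt10* and -0.10 for *Galnt6* in cerebellum. With only the mice named alike, *Galnt11* had 0.022 in wild type.

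With mouse as a replicate block, the pairing changed 1 call, that of *Galnt1* in A391T mice (0.19, adjusted p = 0.0883 by edgeR). The block together with the names of the RPKM table gave 0.025 for *Galnt11* in wild type, and -0.052 for *Galnt9* and -0.014 for *Galnt11* in A391T mice.

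Leaving out 1 library at a time gave from -0.059 to 0.015 for *Galnt11* between wild-type regions, from -0.00067 to 0.048 for *Galnt9* and from -0.015 to 0.060 for *Galnt11* between A391T regions, from -0.018 to 0.11 for *Galnt13* between genotypes in cortex, and from -0.25 to 0.12 for *Galnt14*, from -0.044 to 0.037 for *Galnt11* and from -0.037 to 0.017 for *Galnt1* between genotypes in cerebellum. The range was from 1.62 to 1.75 for *Galnt13*, 1.63 to 1.78 for *Galnt7*, -3.06 to -2.76 for *Galnt14* and -2.82 to -2.41 for *Galnt3* between wild-type regions. Over all genes, the genotype comparison in cortex gave 2 calls with edgeR, 14 with DESeq2, 7 with no filter and 0 with RLE size factors, and that in cerebellum gave 0, 37, 1 and 0. Mean TPM moved by more than 1 SD in 15 of 80 values under TMM rescaling or the RPKM table's names. Shares without gene length moved in 33 of 40. The cause of these changes was not tested. *Galnt3* had 3 to 12 counts in each cerebellum library.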
